A study of Rattus norvegicus with 12 samples.

Results

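Of 701 piRNA names listed in any of 12 rat liver libraries, 61 had at least 1 read in every library, and 33 of these 61 are described here (the members). The members are what remained after 30 named piRNAs were set aside, among them every name with a higher mean level than rno_piR_005359, so the choice rests on the same read counts and on earlier results of them. Liver of Fischer-344 (F-344) rats was compared between sham-operated controls (labelled pre_PH, 6 libraries) and partial hepatectomy, in which some of the liver is cut away and the rest grows back, sampled at 24h, 48h and 168h (2 libraries each). All rats were of this 1 strain and all tissue was labelled liver; age and sex were not stated in the labels. The labels do not say that each library is a separate animal, so the spread between libraries may be partly technical. The label "present in every library" held for all 33, from 62 to 36682 reads per name summed over the 12 libraries.

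PIWI-interacting RNAs (piRNAs) are small RNAs bound by the PIWI clade of Argonaute proteins, and are best known for silencing transposons in the animal germ line. In somatic tissues such as liver, reads assigned to piRNA database entries are usually few, and some database entries share sequence with fragments of other noncoding RNAs such as tRNA, rRNA or snoRNA. The files give no function for the individual names below, so they are grouped by level and by time course. Which entries share sequence with each other or with other RNAs was not analysed here, and members with shared sequence would not be independent. In whole liver, a change in the share of a cell type and a change in RNA per cell cannot be told apart.

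Levels are given as reads per 1000000 library reads (RPM), with each library's total taken from the percentages that the authors deposited beside each count. The library totals ran from 20741811 to 31467460 reads, and listed piRNA reads from 120844 to 351818 per library. A single read was therefore worth 0.0318 to 0.0482 RPM. Fold changes come from edgeR's quasi-likelihood test over the 80 names with enough reads, of which 32 were members (rno_piR_025798 was not). They are log2 values with standard errors, scaled on the piRNAs themselves (TMM), with p-values adjusted over all 80 names and a threshold of 0.05. The TMM factors ran from 0.48 in sham replicate 3 to 1.51 in 48h replicate 1, so a fold change relative to other piRNAs and a change in RPM can differ, and the scale is named with each value.

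The sum over the members varied less between libraries than the sum over all listed piRNAs. Their summed level was 292 ± 25.8 RPM in sham livers (SD, n = 6), 271 ± 10.0 RPM at 24h (n = 2), 321 ± 34.1 RPM at 48h (n = 2) and 278 ± 42.5 RPM at 168h (n = 2). Over the 12 libraries it ran from 248 to 346 RPM, a 1.39-fold range with a coefficient of variation of 10.0%. All listed piRNA reads together ran from 4076 to 12528 RPM, a 3.07-fold range with a coefficient of variation of 36.9%. Both sums come from the counts that chose the members, and most of the total is names that were set aside, so this is a description only. The post-surgery sums of the members lay within or close to the sham range of 255 to 322 RPM: only 48h replicate 2 at 346 RPM was above it and only 168h replicate 2 at 248 RPM below it.

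**Figure D1:**
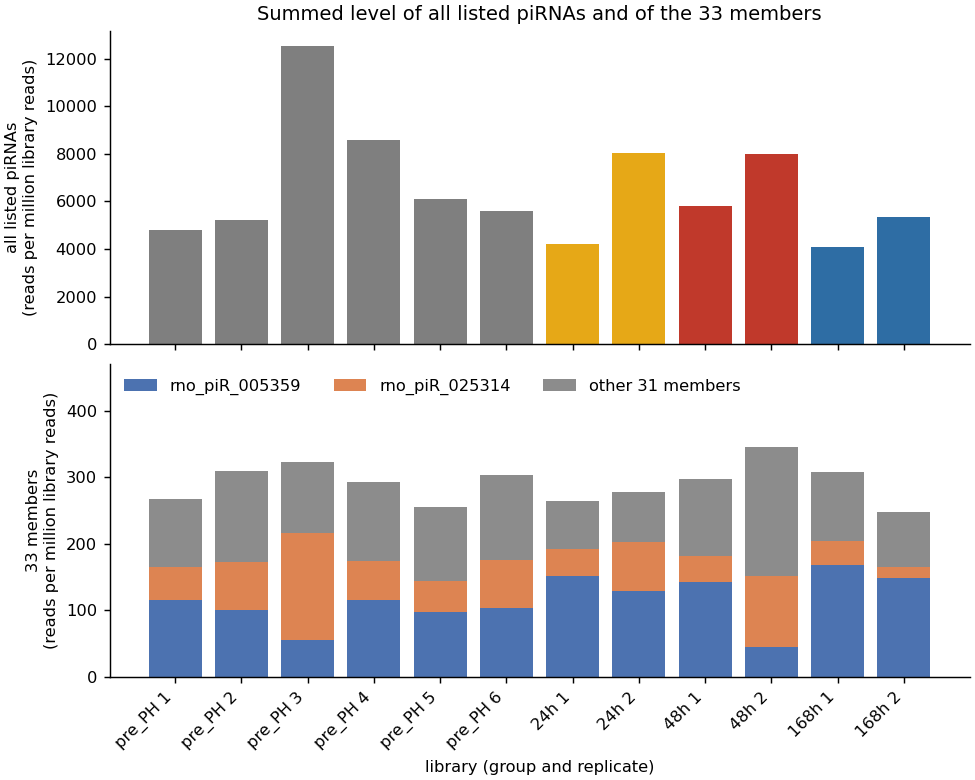
Summed level of all listed piRNAs (upper bars) and of the 33 members (lower stacked bars) in each of 12 libraries, both in RPM of library reads, for sham (pre_PH) and 24h, 48h and 168h after partial hepatectomy. The upper bars span 4076 to 12528 and the lower ones 248 to 346, while the parts of the lower bars change between libraries.

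As a share of listed piRNA reads, the members made up 4.52% ± 1.35 in sham livers (SD, n = 6, from 2.57% to 5.93%). The shares were 6.29% and 3.46% at 24h, 5.10% and 4.32% at 48h, and 7.56% and 4.64% at 168h. At each time at least 1 library lay inside the sham range, and the difference was not larger than the spread between libraries. The lowest share, 2.57%, belonged to sham replicate 3, the library with the most listed piRNA reads.

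The make-up of the sum differed between libraries. The 31 members other than the 2 most abundant summed to 117 ± 13.5 RPM in sham livers (SD, n = 6, from 102 to 137). At 24h they summed to 71.5 and 75.6 RPM, below all 6 sham libraries, while the 2 most abundant members made up 72.9% of member reads on average against 59.7% ± 4.16 in sham (n = 6). At 48h the 31 summed to 116 and 194 RPM, 1 library inside the sham range and 1 above it. At 168h they summed to 103 and 82.2 RPM, 1 inside and 1 below.

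The most abundant member was rno_piR_005359, number 10 by mean level among the 61 names present in every library. Its sham levels had a lowest value of 55.2 RPM, a median of 102 RPM and a highest value of 116 RPM. It stood at 152 and 129 RPM at 24h, at 143 and 45.1 RPM at 48h, and at 169 and 148 RPM at 168h. Both libraries at 24h and at 168h lay above all 6 sham libraries, while the 48h pair fell on either side of the sham range. In the edgeR fit relative to other piRNAs its log2 fold changes against sham were 0.82 ± 0.63 at 24h (SE, adjusted p = 0.672), -0.68 ± 0.68 at 48h (adjusted p = 0.437) and 1.12 ± 0.62 at 168h (adjusted p = 0.348). None passed the threshold.

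The next most abundant, rno_piR_025314, ran in sham livers from 46.0 RPM through a median of 65.3 RPM to 160 RPM. It was at 40.8 and 73.3 RPM at 24h, at 37.9 and 107 RPM at 48h, and at 36.0 and 17.5 RPM at 168h. Only the 168h libraries were both below all sham libraries. Its log2 fold changes relative to other piRNAs were -0.24 ± 0.67 at 24h, -0.91 ± 0.70 at 48h and -0.98 ± 0.70 at 168h (SE, edgeR adjusted p = 0.933, 0.305 and 0.408), and none passed. At 24h the sign rested on sham replicate 3, where this piRNA was highest: without that library the value was 0.11 with the TMM factors kept and 0.62 after rescaling.

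In RPM the levels of these 2 members ran in opposite directions across the libraries. Over the 12 libraries their levels in RPM had a Pearson correlation of -0.84 and a Spearman correlation of -0.78. Without sham replicate 3 and 48h replicate 2, the libraries farthest from the median of rno_piR_005359, Pearson's r was -0.67 over 10 libraries. Over the 6 sham libraries alone Pearson's r was -0.93 and the Spearman correlation -0.37, so within sham the order of the libraries was only weakly opposed. The points share library totals and, in part, groups, and no p is given. In normalised counts (CPM, counts per 1000000, which take listed piRNA reads after TMM scaling as the total) the Spearman correlation was 0.11, so the opposition was seen on the RPM scale and not on the CPM scale.

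**Figure D2:**
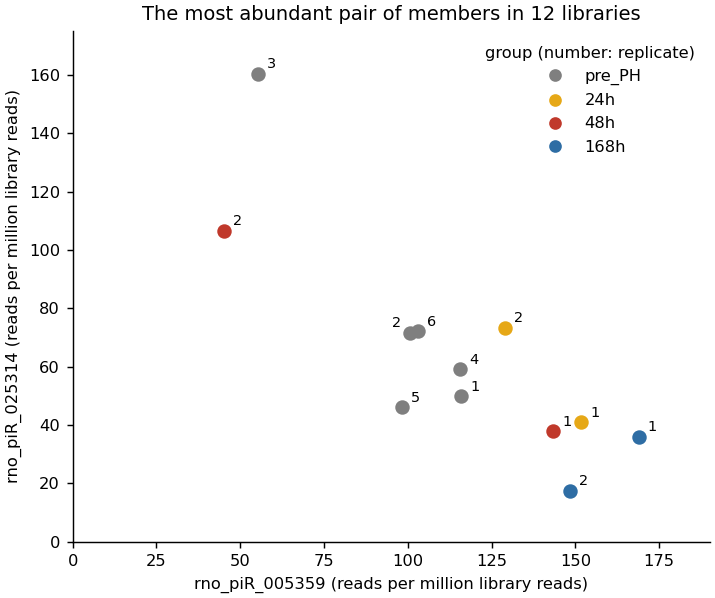
Level of rno_piR_005359 (horizontal axis) against rno_piR_025314 (vertical axis) in 12 libraries, both in RPM of library reads, coloured by group and numbered by replicate. Sham replicate 3 and 48h replicate 2 lie at the upper left with 55.2 and 45.1 for rno_piR_005359, and the 168h libraries at the lower right with 36.0 and 17.5 for rno_piR_025314.

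The other abundant members, between 4.27 and 18.4 RPM on average, are described next. The level of rno_piR_000699 in sham ran from 15.6 through 19.0 to 25.4 RPM, and it was 10.1 and 11.3 RPM at 24h, 19.2 and 13.0 RPM at 48h, and 26.2 and 21.8 RPM at 168h. Both 24h libraries lay below all sham libraries, and its range over the 12 libraries, 2.60-fold in RPM, was the narrowest of the 33. For rno_piR_005596 the sham values were 5.23, 19.4 and 26.5 RPM (lowest, median, highest), against 12.5 and 14.5 RPM at 24h, 18.2 and 22.3 RPM at 48h, and 10.96 and 9.79 RPM at 168h. All 6 post-surgery libraries of rno_piR_005596 lay inside the sham range.

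The largest sham coefficient of variation in RPM, 99.9%, belonged to rno_piR_000552, with a lowest value of 4.92, a median of 9.63 and a highest value of 52.6 RPM. It stood at 5.71 and 9.13 RPM at 24h, 3.52 and 22.5 RPM at 48h, and 5.74 and 4.95 RPM at 168h. Its highest value was sham replicate 2, and no difference of the size seen after surgery could be told from the spread between sham libraries. In contrast rno_piR_023471 ran from 8.02 through 11.6 to 20.6 RPM in sham, with 16.2 and 10.2 RPM at 24h, 11.6 and 6.71 RPM at 48h, and 10.3 and 4.99 RPM at 168h. For rno_piR_005854 the sham values were 1.39, 7.73 and 10.2 RPM, with 3.28 and 4.06 RPM at 24h, 4.92 and 9.79 RPM at 48h, and 9.25 and 3.68 RPM at 168h. Neither rno_piR_023471 nor rno_piR_005854 had a time at which both libraries left the sham range in RPM.

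A set of 7 members was called higher at 48h than in sham. At 168h, 5 of the 7 lay inside the sham range in both libraries in RPM, and rno_piR_010957 and rno_piR_011462 each had 1 library above it. In CPM 4 of the 7 lay inside, and rno_piR_009530 also had a library above. They were low-level names: together they summed to 2.11 ± 1.13 RPM in sham livers (SD, n = 6, from 1.19 to 4.27), 1.51 and 2.84 RPM at 24h, 18.3 and 16.4 RPM at 48h, and 2.42 and 3.20 RPM at 168h. In reads this was 28 to 123 per sham library and 379 and 516 in the 48h libraries. The 48h libraries also listed more piRNA names in all, 328 and 446, against 128 to 216 in the other libraries. A rise at 48h was thus not particular to these 7 names. Of the 32 members tested, 7 rose and 0 fell at 48h. Of all 80 names tested, 46.2% were called, 33.8% higher and 12.5% lower. The names set aside were chosen with this comparison in view, so nothing is read from the members' count beside these shares.

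The clearest of the 7 was rno_piR_002100. In sham it ran from 0.127 through 0.383 to 0.625 RPM (3 to 18 reads), and it was 0.308 and 0.349 RPM at 24h, 4.34 and 3.65 RPM at 48h (90 and 115 reads), and 0.129 and 0.437 RPM at 168h. Both 48h libraries were far above all other libraries, and those at 24h and 168h lay within the sham range. Its log2 fold change relative to other piRNAs was 2.76 ± 0.55 at 48h against sham (SE, edgeR adjusted p = 0.000501). It also rose from 24h to 48h, by 2.63 ± 0.79 (adjusted p = 0.0297), and fell by 2.97 ± 0.80 from 48h to 168h (adjusted p = 0.00783). Both of these steps were lost with no filter on low counts (adjusted p = 0.452 and 0.352). With scaling kept, the rise passed in 9 of 12 fits that left out a library, not without either 24h library or 48h replicate 1 (adjusted p up to 0.166), and the fall in 10 of 12, not without 48h replicate 1 or 168h replicate 1 (up to 0.0607). With new scaling the rise passed in 5 of 12.

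The 2 names with the next largest changes had similar levels. For rno_piR_006831 the sham values were 0.255, 0.446 and 1.25 RPM (lowest, median, highest), with 0.410 and 0.873 RPM at 24h, 5.40 and 4.19 RPM at 48h, and 0.548 and 1.06 RPM at 168h. For rno_piR_010957 they were 0.320, 0.390 and 1.04 RPM, with 0.445 and 0.699 RPM at 24h, 4.68 and 3.72 RPM at 48h, and 1.06 and 0.947 RPM at 168h. The log2 fold changes at 48h were 2.49 ± 0.53 (adjusted p = 0.000848) and 2.30 ± 0.54 (adjusted p = 0.00145). Neither pair of 48h libraries overlapped any other library.

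The remaining 4 had fewer reads. For rno_piR_007899 the sham levels were 0.0425, 0.208 and 0.486 RPM (lowest, median, highest), with 0.103 and 0.437 RPM at 24h, 1.54 and 1.30 RPM at 48h, and 0.226 and 0.146 RPM at 168h. For rno_piR_009003 they were 0.0375, 0.125 and 0.347 RPM, with 0.171 and 0.131 RPM at 24h, 0.771 and 1.84 RPM at 48h, and 0.129 and 0.109 RPM at 168h. In both, the 48h libraries lay above every other library.

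For rno_piR_009530 the sham levels were 0.0750, 0.177 and 0.278 RPM, with 0.0342 and 0.131 RPM at 24h, 1.11 and 1.05 RPM at 48h, and 0.226 and 0.182 RPM at 168h. For rno_piR_011462 they were 0.0356, 0.0731 and 0.243 RPM, with 0.0342 and 0.218 RPM at 24h, 0.434 and 0.636 RPM at 48h, and 0.0967 and 0.328 RPM at 168h. The log2 fold changes at 48h were 1.90 ± 0.74 for rno_piR_007899, 2.13 ± 0.74 for rno_piR_009003, 1.89 ± 0.69 for rno_piR_009530 and 1.78 ± 0.72 for rno_piR_011462 (SE, edgeR adjusted p = 0.0384, 0.0225, 0.0295 and 0.0482). These 4 names had a lowest count of 1 read, and rno_piR_009003, rno_piR_009530 and rno_piR_011462 had enough reads to be tested only because of the 48h libraries, so their calls lend no support to a pattern.

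Both 48h libraries lay above all 6 sham libraries for each of the 7, in CPM (35.0% of the 80 names tested) and in RPM (40.0%). This restates the call on which they were picked. Leaving out each of the 12 libraries in turn, with scaling and tested names kept, rno_piR_002100, rno_piR_006831 and rno_piR_010957 passed in all 12 fits. Refitted with new TMM factors they were lost without 48h replicate 1 (adjusted p = 0.101, 0.127 and 0.112). In that fit 0 members rose and 4 fell, where 4.55% of 88 names rose and 17.0% fell. The other 4 calls were each lost without either 48h library with scaling kept, and all but that of rno_piR_009003 also without some sham libraries, with adjusted p up to 0.235. With no filter on low counts, those 4 and rno_piR_010957 (adjusted p = 0.0597) did not pass.

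**Figure D3:**
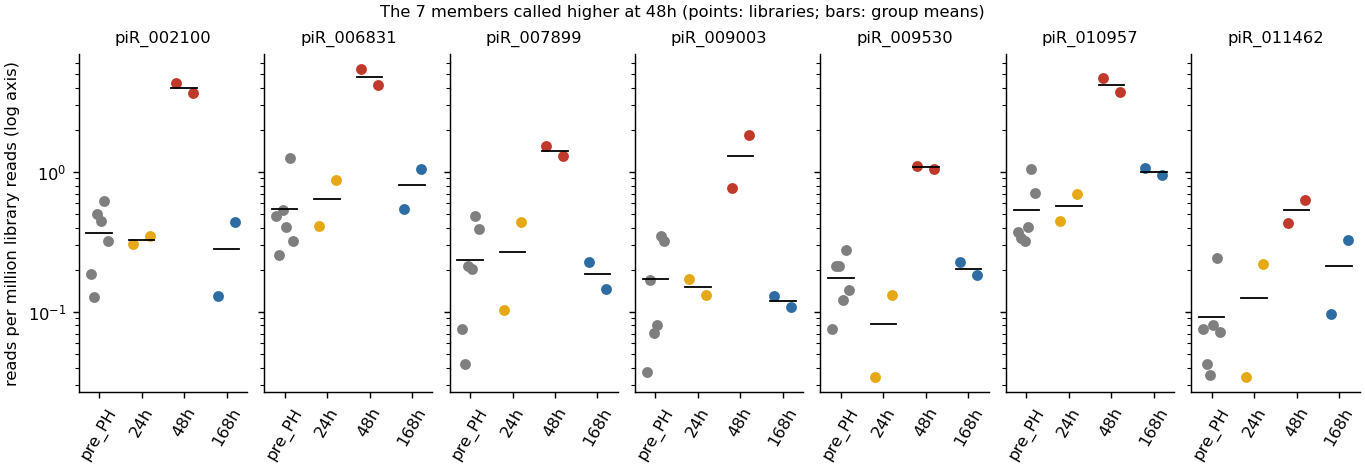
Level of the 7 members called higher at 48h, in RPM of library reads on a log axis, for sham (pre_PH, 6 libraries) and 24h, 48h and 168h (2 libraries each); points are libraries and bars group means. In each panel both 48h points lie above all 6 sham points, by the widest margin in rno_piR_002100 (3.65 and 4.34 against at most 0.625).

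Summed over the 7 names, the reads were spread over many sequences, but rno_piR_011462 had only 1 to 8 per library. Beside each read count the authors deposited a number headed uniqueReads. It is taken here as the number of distinct read sequences, a reading that was not checked. Summed over the 7, distinct sequences numbered 13 to 67 in sham libraries, 24 and 38 at 24h, 137 and 173 at 48h, and 40 and 42 at 168h. Each of the 7 had 1.72 to 2.66 reads per distinct sequence over the 12 libraries. Their higher reads at 48h were thus spread over more sequences as well as more reads for each: in the 7, sham values were 1.36 to 2.35 reads per distinct sequence and 48h values 1.90 to 3.75. In rno_piR_009003 the reads for each hardly differed, at 1.87 in sham and 1.90 at 48h. Other members of low count, 13 names with a mean under 100 reads, had 1.89 to 7.31, and the 13 with a mean of 100 reads or more had 3.73 to 94.5. The range of the 7 overlaps that of the other members of low count. The number of distinct sequences grows with reads, and the part of read number in the low values of the 7 was not tested.

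At the other end stood rno_piR_005359, with 28 to 36 distinct sequences in every library and 94.5 reads for each over all libraries. The member rno_piR_001199, had exactly 2 distinct sequences in each of the 12 libraries while its reads ran from 10 to 438. Its reads per distinct sequence ran from 12.5 to 89.5 in sham libraries and were 38.0 in 48h replicate 1 and 219 in replicate 2, so only the latter lay above sham at that time. The value in 168h replicate 2 was also above sham, at 95.5, and that in 24h replicate 1 below it, at 5.0. With 2 sequences throughout, these values follow the raw reads and are not scaled for depth. The name rno_piR_001199 was the only member of the 33 with a constant number of distinct sequences, and it is named here after its values were seen.

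**Figure D4:**
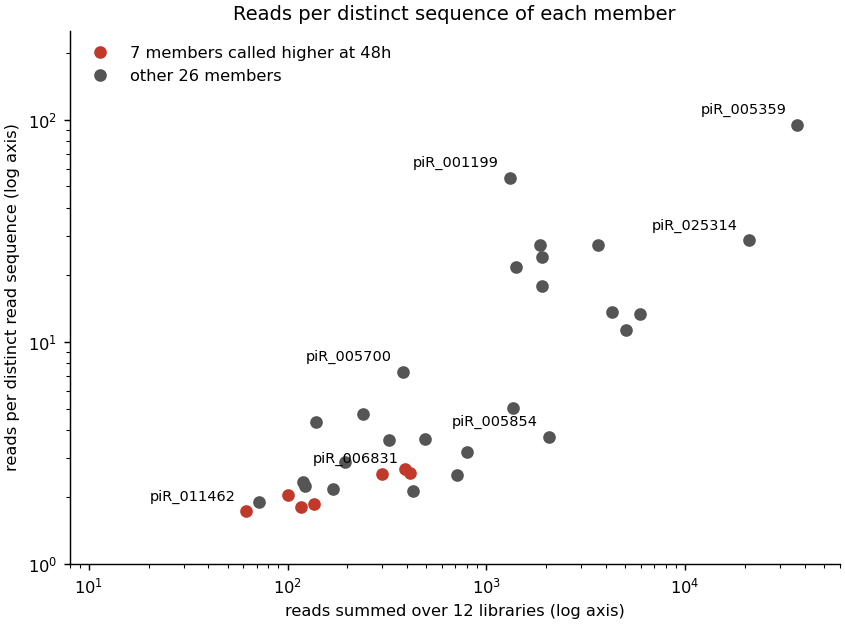
Reads summed over 12 libraries (horizontal log axis) against reads per distinct read sequence (vertical log axis) for each of the 33 members, with the 7 called higher at 48h in red. The 7 lie between 1.72 and 2.66 at the lower left, and rno_piR_005359 at 94.5 and rno_piR_001199 at 54.8 stand highest.

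A different time course was seen in rno_piR_005633. Its sham levels were 4.24, 5.57 and 7.09 RPM (lowest, median, highest). It was at 1.16 and 1.62 RPM at 24h, 8.39 and 22.5 RPM at 48h, and 1.93 and 0.728 RPM at 168h. On the RPM scale both libraries were below all sham libraries at 24h, above them at 48h and below them at 168h. Relative to other piRNAs it rose from 24h to 48h by 2.43 ± 0.78 (SE, edgeR adjusted p = 0.0369) and fell by 2.14 ± 0.78 from 48h to 168h (adjusted p = 0.0329). With scaling kept, the rise passed in 7 of 12 fits that left out a library, failing when either 24h library, either 48h library or sham replicate 4 was left out (adjusted p up to 0.166). The fall passed in 9 of 12, not without either 48h library or 168h replicate 2 (up to 0.221). Both were lost with no filter on low counts (adjusted p of at least 0.206). Against sham its log2 fold changes were -1.77 ± 0.68 at 24h, 0.66 ± 0.58 at 48h and -1.49 ± 0.67 at 168h (adjusted p = 0.262, 0.399 and 0.228), so none passed. Scaled to library totals it fell at 24h by 1.98 (adjusted p = 0.0488) and rose at 48h by 1.49.

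Similar levels were seen in rno_piR_000219, at 2.87, 3.93 and 7.72 RPM in sham, 1.20 and 0.917 RPM at 24h, 3.91 and 14.8 RPM at 48h, and 0.548 and 2.29 RPM at 168h. Both libraries at 24h and at 168h lay below all sham libraries. Its log2 fold changes against sham were -1.82 ± 0.69 at 24h and -1.64 ± 0.68 at 168h (edgeR adjusted p = 0.262 and 0.192), and neither passed. With library totals it changed by 3.14 from 24h to 48h and by -2.72 from 48h to 168h (edgeR adjusted p = 0.00657 and 0.0118). With TMM scaling neither step passed (adjusted p = 0.0546 and 0.0657).

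The 48h libraries differed from each other in many members. In RPM, 13 members were at least 2-fold higher in 48h replicate 2 than in replicate 1 and 2 were at least 2-fold lower. At 24h and at 168h, 12 and 14 members were at least 2-fold apart. The same counts over all names are not given here, so these are not read as traits of the members. Among the 13 were rno_piR_005593, at 5.21 and 16.4 RPM against 3.26, 4.14 and 6.91 RPM in sham (lowest, median, highest), 3.59 and 2.88 RPM at 24h and 6.77 and 6.04 RPM at 168h, and rno_piR_001199, at 3.66 and 13.9 RPM against 1.06, 2.49 and 6.22 RPM. A level set by 1 of 2 libraries at 48h has no replicate in these members.

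**Figure D5:**
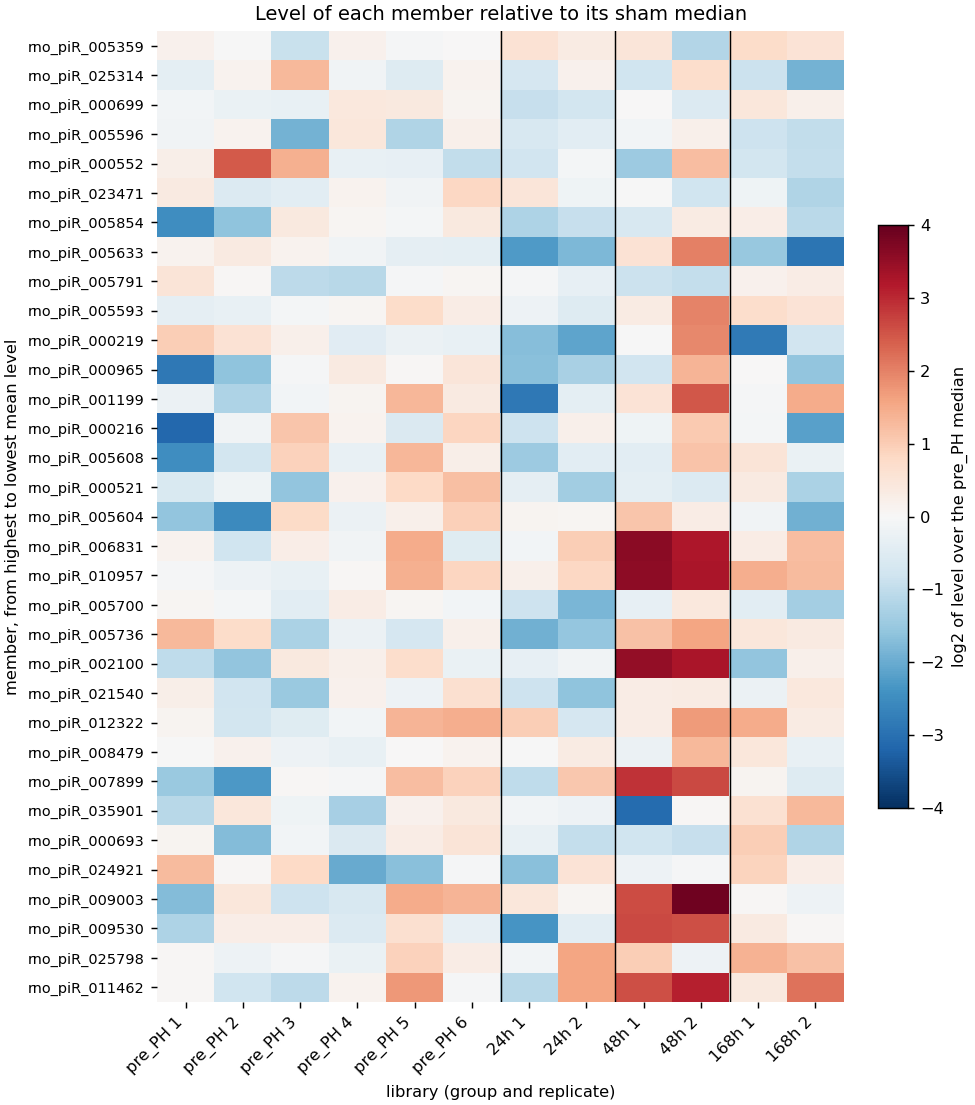
Each row is a member, ordered by mean level, and each column a library; the colour is log2 of its level in RPM of library reads over its sham (pre_PH) median, from -4 (blue) to 4 (red). The 7 members called higher at 48h form dark red pairs in the 48h columns, and rno_piR_005633 is blue at 24h and 168h and red at 48h.

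At 24h, 0 of 32 members passed the edgeR test against sham, where 2.5% of all 80 names did. An unadjusted p under 0.05 was found in 3 members and in 9 of all 80 names. DESeq2 called 1 member lower, where it called 3.75% of the 80 names lower. With library totals 1 member, rno_piR_005633, was called lower, where 5.62% of 89 names were called and 4.49% lower. The median log2 fold change was -0.18 over the members and -0.22 over all names tested. In CPM no member had both libraries above sham (1.25% of all names) and 4 had both below (12.5%): rno_piR_000219, rno_piR_000699, rno_piR_005633 and rno_piR_005736. In RPM rno_piR_005359 was above sham (2.5%) and 5 were below (15.0%), the same 4 and rno_piR_005700.

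At 48h the members' median log2 fold change was -0.21, against 0.09 over all names tested. Scaled to library totals these medians were 0.40 and 1.03, so the direction of the members' median depended on the scale. In CPM, 4 members had both 48h libraries below sham (18.8% of all names): rno_piR_000699, rno_piR_005700, rno_piR_005791 and rno_piR_023471. In RPM 0 did (10.0%). With library totals, 10 members rose, the 7 above and rno_piR_001199, rno_piR_005593 and rno_piR_005633, and 0 fell. Of 89 names tested 56.2% were called, 47.2% higher and 8.99% lower. For rno_piR_001199 and rno_piR_005593 (edgeR adjusted p = 0.0495 and 0.0240) 48h replicate 1 lay inside the sham range in RPM.

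At 168h, 0 of 32 members passed against sham, where 6.25% of all names did. An unadjusted p under 0.05 was found in 3 members and in 13 of all 80 names. DESeq2 called 1 member lower, where it called 2.5% of the 80 names lower. The median log2 fold change was 0.53 over the members and 0.33 over all names, and with library totals 0.14 and -0.06. Both 168h libraries of rno_piR_035901 were above sham in CPM (15.0% of all names) and in RPM (12.5%), as were those of rno_piR_025798, which was not tested. In RPM those of rno_piR_005359 were above sham as well. The levels of rno_piR_025798 were 0.121, 0.146 and 0.278 RPM in sham and 0.387 and 0.328 RPM at 168h. In RPM 4 members had both libraries below sham (10.0%): rno_piR_000219, rno_piR_005633, rno_piR_005700 and rno_piR_025314. In CPM, rno_piR_000219 and rno_piR_005633 did (3.75%).

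Between the times after surgery, 2 of 32 members rose from 24h to 48h and 0 fell, where 15.0% of all names rose and 2.5% fell. From 48h to 168h, 3 rose and 2 fell, where 16.2% rose and 21.2% fell. The steps share their 48h libraries, and the 2 that fell, rno_piR_002100 and rno_piR_005633, were the 2 that had risen before. The 3 that rose relative to other piRNAs were rno_piR_000699 (1.70 ± 0.64, adjusted p = 0.0408), rno_piR_005791 (2.21 ± 0.73, adjusted p = 0.0214) and rno_piR_035901 (2.78 ± 0.97, adjusted p = 0.0279).

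None of these 3 rises passed when libraries were scaled by listed piRNA reads or by library totals. That of rno_piR_000699 was also lost with DESeq2 and with no filter, and in 6 of 12 fits that left out a library with scaling kept (adjusted p up to 0.318), among them both 48h libraries and 168h replicate 1. Those of rno_piR_005791 and rno_piR_035901 passed with DESeq2 and with no filter, and in 9 of 12 of the leave-out fits each. The losses for rno_piR_005791 were without either 48h library or 168h replicate 1 (up to 0.130), and for rno_piR_035901 without 48h replicate 1 or either 168h library (up to 0.145). With library totals 11 members rose from 24h to 48h, where 46.1% of 89 names did. From 48h to 168h 8 members fell and 0 rose, where 43.8% of names were called, 36.0% lower and 7.87% higher. In RPM rno_piR_005791 was at 2.996, 6.46 and 9.19 in sham (lowest, median, highest), 6.29 and 5.20 at 24h, 3.57 and 3.37 at 48h, and 7.25 and 7.90 at 168h. Its 48h libraries were low and its 168h libraries high within the sham range. For rno_piR_035901 the values were 0.162, 0.404 and 0.552 RPM in sham, 0.376 and 0.349 RPM at 24h, 0.0482 and 0.413 RPM at 48h, and 0.613 and 0.983 RPM at 168h. The lower 48h value was 1 read, and the widest range of the 33 in CPM, 32.5-fold, rested on it.

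Of the other members, rno_piR_000216, rno_piR_000521, rno_piR_000693, rno_piR_000965, rno_piR_005604, rno_piR_005608, rno_piR_005736, rno_piR_012322 and rno_piR_024921 had sham medians from 0.330 RPM (rno_piR_024921) to 4.67 RPM (rno_piR_000965). None of them passed the edgeR test with TMM scaling in any of the 5 comparisons, and with library totals rno_piR_005736 rose from 24h to 48h by 3.10 (adjusted p = 0.00657). The most negative fitted change among them at 24h was that of rno_piR_005736, at 0.205 and 0.262 RPM against 0.320, 0.769 and 1.87 RPM in sham (lowest, median, highest), and it was at 1.74 and 2.32 RPM at 48h and 1.06 and 0.983 RPM at 168h. Its log2 fold change at 24h was -1.72 ± 0.76 (adjusted p = 0.343).

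The steadiest members in CPM over the 12 libraries were rno_piR_008479 with a 4.06-fold range, rno_piR_005593 with 4.22-fold, rno_piR_005700 with 4.72-fold and rno_piR_021540 with 4.75-fold. In sham, rno_piR_008479 ran from 0.364 through 0.451 to 0.509 RPM, a coefficient of variation of 12.9% that was the lowest of the 33 in RPM. It was at 0.445 and 0.568 RPM at 24h, 0.386 and 1.11 RPM at 48h, and 0.613 and 0.364 RPM at 168h, on 8 to 35 reads per library. Only 48h replicate 2 stood well away from sham.

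The level of rno_piR_005700 was 1.03, 1.39 and 1.70 RPM in sham, 0.787 and 0.393 RPM at 24h, 1.11 and 1.87 RPM at 48h, and 1.03 and 0.546 RPM at 168h. That of rno_piR_021540 was 0.285, 0.793 and 1.25 RPM in sham, 0.445 and 0.262 RPM at 24h, 0.964 and 0.985 RPM at 48h, and 0.677 and 1.06 RPM at 168h. Of the 32 tested members, 13 had fitted changes within 1 log2 unit of sham at all 3 times. With standard errors of 0.49 to 0.90 a change of that size could not be told from none.

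The names whose levels followed the 5 most abundant members most closely were found by Spearman correlation of CPM over the 12 libraries, among all 61 names present in every library. For rno_piR_005359 they were rno_piR_005791 (0.80) and rno_piR_032799 (0.65), and for rno_piR_025314 rno_piR_000216 (0.87) and rno_piR_000030 (0.71). For rno_piR_000699 they were rno_piR_000746 (0.87) and rno_piR_000562 (0.84). For rno_piR_005596 they were rno_piR_023471 (0.69) and rno_piR_000521 (0.63), and for rno_piR_000552 rno_piR_025314 (0.68) and rno_piR_008479 (0.60). In RPM the same correlations were 0.48 and 0.43, 0.78 and 0.78, 0.76 and 0.81, 0.31 and 0.35, and 0.66 and 0.36 in that order, so those of rno_piR_005359, rno_piR_005596 and of rno_piR_000552 with rno_piR_008479 were lower on that scale. All points share the scaling of their library, and the values are descriptions of 12 libraries with no p.

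The threshold of 1 read in every library sets the edge of the list. In all, 5 members, rno_piR_007899, rno_piR_009003, rno_piR_009530, rno_piR_011462 and rno_piR_035901, had exactly 1 read in their lowest library, 19 had fewer than 10 reads in some library, and 5 had at least 100 in every library. Just outside were 8 names with reads in 11 libraries. The highest of these, rno_piR_010458, had 17.2 reads on average and none in sham replicate 4, with 68 and 86 reads at 48h. Next were rno_piR_006964 (9.58 reads on average) and rno_piR_007198 (8.75), each with none in 24h replicate 2, rno_piR_025774 (8.58), with none in sham replicate 6, rno_piR_008315 (4.42), with none in 168h replicate 2, and rno_piR_005296 (4.33), with none in 24h replicate 1. In the 48h libraries these names had, in that order, 26 and 9, 13 and 34, 28 and 33, 15 and 14, and 10 and 19 reads. Their highest sham counts were 31, 9, 8, 4 and 6 reads. At these counts presence or absence in a library turned on a few reads.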

How the data were processed

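Small RNA of 12 rat liver libraries was sequenced on an Illumina HiSeq after TruSeq small RNA preparation, per the labels' protocols. The submitters' processing notes name CASAVA 1.8, cutadapt, DESeq 1.14.0 and genome build rn4, with no roles; the aligner to piRNA entries and its treatment of reads matching several names are not stated there. For each piRNA name and library the authors deposited the raw read count and a number headed uniqueReads, taken here as distinct read sequences. They also gave the read count as a percent of all library reads and of mapped piRNA reads. A name that a file does not list was taken as 0 reads. Library totals were the deposited count divided by the authors' percent of all reads, and RPM is counts over that total. piRNA sequences and positions were not used here.

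Counts of all 12 libraries were fitted in 1 model with edgeR 4.0.16 (R 4.3.3; filterByExpr, TMM, robust quasi-likelihood test, Benjamini-Hochberg adjustment over 80 names). The common biological coefficient of variation was 0.591. The fit was also run on simulated counts, but the outcome is not given here and lends the calls no support. Alternatives were piRNA totals, library totals, DESeq2 1.42.0, no filter, a replicate block and leaving out each library. Precision is limited by 2 libraries per time. The p-values set each fold change against a spread between libraries that was estimated over all groups together.

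The members, the excluded names and the tests were chosen with earlier results of these data known, so their calls are descriptions. Named by rule were rno_piR_005359 and rno_piR_025314, the 10 most abundant members, those past the threshold in any comparison, the 4 steadiest and 2 most variable, and those with a lowest count of 1. Other members are named where counts or the account of the list need them.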

Additional observations from a re-analysis of the deposited data

Results flagged for a closer look

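Among sham livers, 3 of 33 groups tested had a library standing far from the other 5 in normalised CPM. The cutoff gives about 1 in 20 by chance for normally distributed values. CPM of low counts need not be distributed that way, so no excess over chance is read from the 3. The value of rno_piR_000552 was 11186 CPM in sham replicate 2. The value of rno_piR_006831 was 184 CPM in sham replicate 5, and that of rno_piR_011462 was 35.8 CPM in the same library. For rno_piR_006831 both 48h libraries were above that sham value all the same.

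Some members differed between times after surgery by the edgeR test of the difference itself. From 24h to 48h, rno_piR_002100 rose by 2.63 and rno_piR_005633 by 2.43 on the log2 scale, each higher in both 48h libraries than in both 24h libraries in RPM. From 48h to 168h, rno_piR_002100 changed by -2.97 and rno_piR_005633 by -2.14, while rno_piR_000699 rose by 1.70, rno_piR_005791 by 2.21 and rno_piR_035901 by 2.78. The last 3 were relative to other piRNAs and were lost with either total as the scale.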

How the results depend on the processing

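The 7 rises at 48h were kept with piRNA totals, library totals and DESeq2, in direction and call, for every one of the 7 names. In these fits 38.8%, 47.2% and 37.5% of all names tested were called higher. Each setting kept a filter on low counts. In the main fit rno_piR_009003, rno_piR_009530 and rno_piR_011462 passed it only because of the 48h libraries, so their kept calls lend no support. Without the filter on low counts 2 members passed at 48h (rno_piR_002100 and rno_piR_006831), 0 from 24h to 48h and 2 from 48h to 168h, where 3.57%, 0.428% and 2.43% of all 701 names did. With piRNA totals 8 passed from 24h to 48h (32.5% of all 80 names) and 2 from 48h to 168h (30.0%). With library totals the counts were 1 at 24h, 11 from 24h to 48h and 8 from 48h to 168h, beside 5.62%, 47.2% and 43.8% of 89 names. With DESeq2 they were 1 at 24h, 1 at 168h, 10 from 24h to 48h and 10 from 48h to 168h, beside 5.0%, 7.5%, 38.8% and 46.2% of 80 names. The cause was not tested.

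Leaving out each library in turn, with or without new scaling, gave 0 to 1 members at 24h, 3 to 16 at 48h, 0 to 1 at 168h, 0 to 8 from 24h to 48h and 0 to 8 from 48h to 168h. With TMM factors and tested names kept, an alternative chosen after seeing the data, the range at 48h was 3 to 8. Refitted without 168h replicate 1, 3 members rose and 13 fell at 48h, where 17.6% of 108 names rose and 26.9% fell. The share of all names that passed moved as well: with a sham library left out, 38.8% to 50.0% of 80 names passed at 48h. The number of names tested moved from 80 to 108 between refits, so nothing is read from the members' counts alone. For rno_piR_025314 at 24h the leave-out values ran from -0.98 to 0.62, and for rno_piR_005359 at 48h from -3.03 to 0.014. Shares of listed piRNA reads without rno_piR_000685 in the total were 7.99% in sham, 7.56% at 24h, 6.20% at 48h and 9.54% at 168h.

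With the replicate number as a block, 5 members passed at 48h (4 rose, 1 fell), 0 at 24h and at 168h, 2 from 24h to 48h and 3 from 48h to 168h. Of all 80 names 33.8%, 1.25%, 0.0%, 15.0% and 32.5% passed in the same fits. Nothing in the labels says that numbers pair the libraries. Correlations of same-numbered deviations were 0.28 and -0.15 for sham with 24h, 0.35 and 0.14 with 48h, and -0.44 and 0.04 with 168h, and 0.19, 0.14 and -0.20 between 24h and 48h, 24h and 168h, and 48h and 168h. With the 168h numbers crossed, chosen after seeing the data, 4 passed from 48h to 168h, beside 33.8% of all names. Depth limits names of few reads, where 3 reads were 0.0953 to 0.145 RPM.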

Other observations

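A set of 5 members, picked after their values were seen and so given with no test, was low in the same sham library. In CPM, 7 of the 33 members had their lowest sham value in that library, and rno_piR_005604 was lower still in sham replicate 2, at 0.212 RPM. How many of all names had their lowest sham value there is not given here. In sham replicate 1 the levels were 0.262 RPM for rno_piR_000216, 0.637 RPM for rno_piR_000965, 0.412 RPM for rno_piR_005604, 0.337 RPM for rno_piR_005608 and 1.39 RPM for rno_piR_005854. The sham medians of these names were 2.32, 4.67, 1.24, 1.89 and 7.73 RPM. Over the 12 libraries their pairwise Spearman correlations in CPM ran from 0.33 to 0.88.

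In CPM, 16 of the 33 members had their highest value of the 12 libraries in 168h replicate 1, against 3 in RPM. In RPM, 11 had theirs in 48h replicate 2. Which library was highest thus depended on the scale for many members. The same counts over all names are not given here, so nothing particular to the members is read from these.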
